A study of Homo sapiens with 15 samples.

Results

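The miR-378 family was followed through the small RNA libraries of a study on N6-methyladenosine (m6A) in microRNAs (miRNAs), in which the anti-m6A antibody precipitates RNA that carries the modified base and FTO is an enzyme that removes it. Members were all mature miRNAs named miR-378a to miR-378i, with both arms of miR-378a and without miR-378j, which gave 10 members among 2424 miRNAs in all. The knockdown libraries listed 2418 miRNAs with all 10 members, and the immunoprecipitation (RIP-seq) libraries listed 2189 miRNAs with 9 members, since miR-378e was listed for the knockdown libraries only. All 15 libraries came from FTO1C1, FTO2D4 and FTO3C3 cells, which are clonal derivatives of the human embryonic kidney line HEK293, and each group held 1 library per derivative. In the scrambled siRNA group, uninduced cells were transfected with 10 nM of a scrambled siRNA and harvested after 48 h. In the FTO siRNA group, they received 10 nM of FTO-specific siRNA for the same time. The other groups were made from the small RNA of cells without treatment, with no siRNA. The input group is that small RNA itself, the m6A group was precipitated with the anti-m6A antibody, and the IgG group was precipitated in the same way with a control antibody that has no such target. The 3 derivatives are the replicates, and 1 library stands for each derivative in a group, so that the spread between libraries holds the differences between the derivatives as well as technical error.

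MiRNAs are short RNAs cut from a hairpin, which can leave a mature miRNA from its 5′ arm (5p) and another from its 3′ arm (3p). They bind messenger RNAs mainly through the seed, the bases after the first base of the 5′ end. The miR-378a hairpin lies in an intron of PPARGC1B, which encodes the transcriptional coactivator PGC-1β of mitochondrial and lipid metabolism, and miR-378a has been studied in fat, liver and muscle as a miRNA of energy metabolism. Members b to i come from other loci of the genome and resemble miR-378a-3p.

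The mature sequences of 8 of the 10 members were found in the RefSeq annotation of GRCh38.p14. They are shown because the members differ from miR-378a-3p by few bases, and because an adenosine is what the antibody would have to find modified. The capitals mark the seed, bases 2 to 8, and the last line is miR-422a, a miRNA outside the family by name.
hsa-miR-378a-3p: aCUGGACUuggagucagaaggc
hsa-miR-378a-5p: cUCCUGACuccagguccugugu
hsa-miR-378b: aCUGGACUuggaggcagaa
hsa-miR-378c: aCUGGACUuggagucagaagagugg
hsa-miR-378f: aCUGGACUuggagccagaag
hsa-miR-378g: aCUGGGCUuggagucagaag
hsa-miR-378h: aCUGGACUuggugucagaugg
hsa-miR-378i: aCUGGACUaggagucagaagg
hsa-miR-422a: aCUGGACUuagggucagaaggc

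Within the family, the seed CUGGACU was shared by miR-378a-3p, b, c, f, h and i. It was held by 7 of the 2370 mature human miRNAs of the RefSeq annotation (0.295%), and miR-422a was the only other one. Members d and e had no mature sequence in that annotation, so that their seeds and motifs were not assessed. Substitutions are given with the base of miR-378a-3p first and positions counted from 1 at the 5′ end. Member b differed by U14G, f by U14C, i by U9A and h by A12U and A19U over their shared length. Member c shared the first 20 bases with miR-378a-3p and then differed by G21A and C22G, and miR-422a differed by G10A and A12G. In miR-378g, A6G changed the seed to CUGGGCU. The opposite arm, miR-378a-5p, has the seed UCCUGAC. The mature miR-378a-3p lies on the plus strand of chromosome 5 at chr5:149732867-149732888 and miR-378i on the minus strand of chromosome 22 at chr22:41923271-41923291, both GRCh38.p14. The counts themselves carry no genome position, since the reads were matched to miRNA sequences only. Where several miRNAs could take a read, the sequence with the most matching bases received it, so that a trimmed or misread copy of the abundant miR-378a-3p can be counted for a member that differs from it by 1 base, and the counts of members b to i are uncertain in this respect.

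The core of the consensus that is known for m6A in messenger RNA is GAC or AAC (RAC), and the longer form (RRACH) has a further purine in front of that core and any base but guanosine behind it. Both were searched on the strand of the miRNA only. Each match to the longer form includes a match to the core. The longer form was present as GGACU, inside the seed, in all shown members except miR-378g and miR-378a-5p. Member g held neither form, as its A6G removes the only adenosine that fits, and miR-378a-5p held the core alone. Among all 2370 mature miRNAs, 36.1% held the core and 20.7% the longer form. A match describes the sequence and does not show a methylated base.

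The scrambled siRNA libraries held between 1991317 and 3637951 reads on miRNAs and the FTO siRNA libraries between 3462842 and 3876806. Input libraries held between 1408702 and 1500357 reads, m6A libraries between 569501 and 4973238 and IgG libraries between 186446 and 786688. Values are given as reads per 1000000 miRNA reads of the library (RPM), so that 1 read is worth between 0.201 and 1.76 RPM in an m6A library and between 1.27 and 5.36 RPM in an IgG library. A single sequence, miR-6080, took 41.3% to 47.8% of the reads in the m6A libraries, 58.0% to 71.6% in the IgG libraries and 15.5% to 28.4% in the inputs. The m6A and IgG libraries of FTO2D4 listed the identical count of 563404 reads for miR-6080. It is the only count over 500 that any pair of the 9 RIP-seq libraries shared. The tests of fold change between RIP-seq groups were therefore repeated with miR-6080 left out of the totals. RPM values, ranks, ratios of RPM, rules and profiles keep miR-6080 in the totals. Of the markers for the cell type, miR-10a-5p, abundant in HEK293 cells, stood between 221235 and 306280 RPM in the knockdown libraries and between 96696 and 161556 RPM in the inputs. The liver miRNA miR-122-5p stood between 5.22 and 7.03 RPM in the knockdown libraries. Of 4 blood miRNAs, miR-142-5p, miR-142-3p and miR-451a stayed under 20 RPM in the knockdown and input libraries, whereas miR-223-3p stood between 44.0 and 77.1 RPM in the knockdown libraries and between 406 and 822 RPM in the inputs. Of 12 muscle miRNAs, miR-486-5p stood between 306 and 407 RPM in the knockdown libraries and miR-499a-5p between 118 and 234 RPM. The other muscle miRNAs listed for these libraries reached at most 67.8 RPM there. In the inputs, miR-486-5p stood between 67.4 and 80.0 RPM and miR-499a-5p between 54.7 and 74.7 RPM.

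In the input libraries, the family was nearly a single miRNA. Counts for miR-378a-3p were 5047 reads or 3583 RPM in FTO1C1, 7053 reads or 4832 RPM in FTO2D4 and 9044 reads or 6028 RPM in FTO3C3, which placed it between rank 17 and rank 24 of the miRNAs. It took 97.7%, 97.9% and 98.6% of all family reads in the same order. The order of the other members by mean RPM was miR-378a-5p with 27.4 ± 2.4 (SD, n = 3 here and below), miR-378c with 25.0 ± 1.8, miR-378d with 13.6 ± 5.3, miR-378g with 6.41 ± 0.84, miR-378b with 5.46 ± 3.79, miR-378h with 5.24 ± 1.65, miR-378i with 3.85 ± 1.97 and miR-378f with 3.68 ± 1.74. The ranges of miR-378a-5p and miR-378c overlapped, as did those of the members from miR-378g downwards, so these neighbours could not be ordered beyond their spread. The family as a whole held 0.367% to 0.611% of the miRNA reads of an input.

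In the m6A precipitates, miR-378a-3p made up more of the library than in the input. It stood at 10205 RPM (5812 reads) in FTO1C1, 7582 RPM (10332 reads) in FTO2D4 and 9183 RPM (45667 reads) in FTO3C3, at ranks 6 to 10. With the IgG antibody it was almost lost, at 22.9 RPM (17 reads), 72.5 RPM (57 reads) and 53.6 RPM (10 reads) in the same order, at ranks 340 to 1088. The m6A, input and IgG libraries did not overlap for this miRNA. How many of all miRNAs separate in this way was not counted, so this is a description only. The remaining members stood between 2.00 and 59.0 RPM in all 9 libraries.

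**Figure D1:**
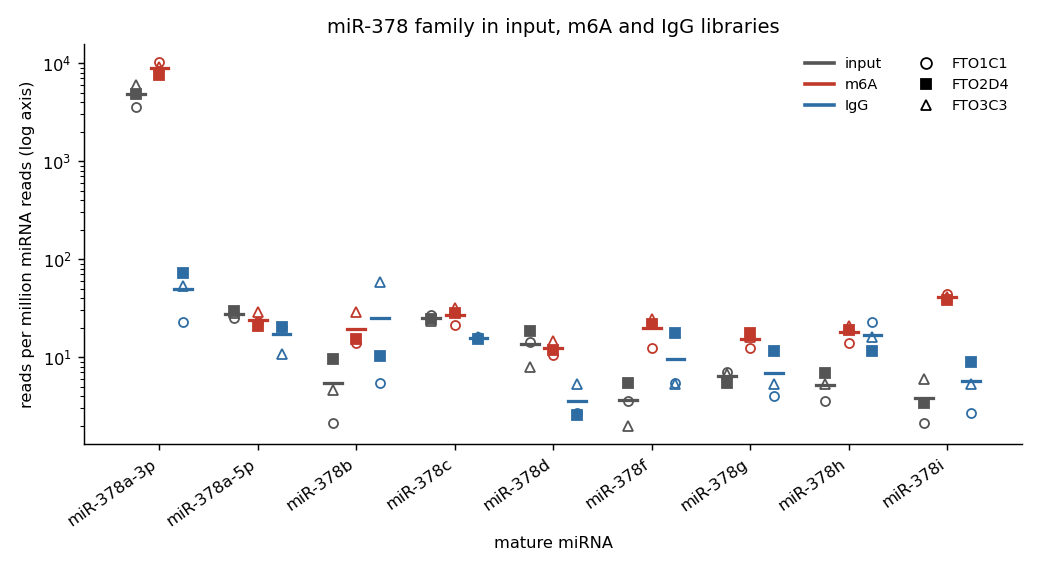
Reads per 1000000 miRNA reads (log axis) of the 9 members listed for the RIP-seq libraries, by mature miRNA, for input, m6A and IgG libraries; each point is a library of 1 cell derivative and the bar is the mean of the 3. The IgG points of miR-378a-3p, 22.9 to 72.5 RPM, lie far below its input points, 3583 to 6028 RPM, and the m6A points of miR-378i, 38.2 to 43.9 RPM, stand above its input and IgG points.

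The first question was which members the anti-m6A antibody precipitated more than the IgG control. The test was edgeR's quasi-likelihood test over 2054 miRNAs with the cell derivative as a block, and calls were made at an adjusted p (Benjamini-Hochberg) under 0.05. Of all miRNAs tested, 38.6% were called higher and 1.27% lower in m6A, and their median log2 fold change was 0.83. Of the 9 members, 7 passed the filter on low counts, 2 were called higher and none lower, which is no larger a share than that of all miRNAs.

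The called members were miR-378a-3p and miR-378i. For miR-378a-3p the log2 fold change was 7.59 ± 0.49 (SE), with a 95% interval from 6.48 to 8.71 and an adjusted p of 8.17e-06 in edgeR. Only 6 of the 2054 miRNAs had a larger log2 fold change, as its rank was 7. For FTO1C1, FTO2D4 and FTO3C3 the m6A/IgG ratios of RPM were 445, 105 and 171, a mean of 240 ± 180, and the exact 95% counting intervals ran from 278 to 765, from 80.7 to 138 and from 93.1 to 357. All 3 derivatives thus gave ratios over 100, but the ratio rests on 10 to 57 IgG reads and differed more between FTO1C1 and FTO2D4 than counting error allows. Without miR-6080 in the totals the log2 fold change was 6.89 (adjusted p = 4.16e-05 in edgeR).

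For miR-378i the m6A libraries held 25, 52 and 205 reads in FTO1C1, FTO2D4 and FTO3C3, or 43.9, 38.2 and 41.2 RPM. The IgG libraries held 2, 7 and 1 reads, or 2.70, 8.90 and 5.36 RPM, and the inputs 3, 5 and 9 reads, or 2.13, 3.43 and 6.00 RPM. The m6A values did not overlap with either of the others, whereas IgG and input overlapped. As the share of all miRNAs without overlap was not counted, this is a description only. The log2 fold change against IgG was 2.82 ± 0.53 (95% interval from 1.63 to 4.02, adjusted p = 0.00289 in edgeR), and the m6A/IgG ratios were 16.3, 4.29 and 7.69 in the same order, with counting intervals from 4.06 to 142, from 1.94 to 11.2 and from 1.36 to 305. This call held without miR-6080 in the totals, at a log2 fold change of 2.06 (adjusted p = 0.0211 in edgeR).

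The other tested members gave smaller differences between m6A and IgG. The log2 fold change was 0.88 for miR-378f (adjusted p = 0.208 in edgeR), 0.72 for miR-378c (0.200) and 0.36 for miR-378a-5p (0.546). It was 0.13 for miR-378h (0.856) and 0.09 for miR-378b (0.910). All of these members except miR-378f were below the median of all miRNAs. Their 95% intervals reached from -0.29 to 2.05 for miR-378f and from -1.13 to 1.32 for miR-378b, so that differences of this size between the antibodies cannot be told from none at this depth. Members d and g did not pass the filter. The m6A/IgG ratios of miR-378d were 3.91, 4.62 and 2.74 in FTO1C1, FTO2D4 and FTO3C3, on 2, 2 and 1 IgG reads, with counting intervals from 0.698 to 39.6, from 1.09 to 41.4 and from 0.476 to 110. Those of miR-378g were 3.04, 1.54 and 3.0, on 3, 9 and 1 IgG reads, with intervals from 0.693 to 18.2, from 0.691 to 3.76 and from 0.523 to 120. With no filter, miR-378d was called higher (log2 fold change 1.92, adjusted p = 0.0485 in edgeR) and miR-378g was not (1.07, adjusted p = 0.159).

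The study asks of an enriched miRNA 100 RPM and a ratio of at least 2 over IgG. Read here as 100 RPM in all 3 m6A libraries and a mean of the 3 ratios of at least 2, the rule was passed by 258 of 2189 miRNAs (11.8%). The study reports fewer enriched miRNAs, so this reading of the rule does not reproduce its count. Of the 9 members, miR-378a-3p passed. At a cutoff of 15 RPM in place of 100, miR-378i passed as well, among 967 miRNAs.

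The precipitate was then set against the RNA it was taken from. In m6A against input, 66.8% of the 2174 miRNAs tested were called higher and 10.5% lower, and the median log2 fold change was 1.65, so that most miRNAs take a larger part of an m6A library than of an input. All 9 members passed the filter, and 6 were called higher and none lower, again a share like that of all miRNAs. The scale decides most of these calls, as trimmed-mean (TMM) factors or DESeq2, which bring the median near 0, each left miR-378i called higher and miR-378a-5p, c and d called lower. With TMM factors, 26.4% of all miRNAs were called higher and 28.2% lower.

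Member i had the largest difference of the family, a log2 fold change of 3.39 ± 0.46 (adjusted p = 3.25e-07 in edgeR), 1.74 above the median of all miRNAs. With TMM factors it was 1.82 (adjusted p = 0.00713 in edgeR). Members f, b, h and g were called higher at log2 fold changes of 2.44, 1.85, 1.77 and 1.27, within 0.79 of the median in either direction. For miR-378b the log2 fold change was 1.33 without FTO3C3 (adjusted p = 0.0550 in edgeR) and for miR-378g 1.07 without FTO2D4 (adjusted p = 0.129), so that these calls were lost. With TMM factors f, b and h stood at 0.91, 0.27 and 0.22 and g at -0.29, and none of them was called. For miR-378a-3p the log2 fold change was 0.92 ± 0.42 (adjusted p = 0.0473 in edgeR), which is 0.73 below the median of all miRNAs and became -0.62 with TMM factors. The call was lost without FTO1C1 (log2 fold change 0.63, adjusted p = 0.349) and without FTO2D4 (1.06, adjusted p = 0.0754). The m6A/input ratios of the derivatives were 2.85, 1.57 and 1.52 in the usual order, so that it was higher in 3 of 3. Members c, d and a-5p stood at 0.13, -0.03 and -0.19, which is 1.52, 1.68 and 1.85 below the median, and with TMM factors they were -1.43, -1.57 and -1.76.

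What the control antibody brought down differed from the input too. In IgG against input, 36.8% of the 1941 miRNAs tested were called higher and 21.8% lower. The median log2 fold change was 0.49. Of the 5 members that passed the filter, 2 were called higher and 1 lower. Member a-3p was the one called lower, at a log2 fold change of -6.68 ± 0.49 (adjusted p = 1.31e-38 in edgeR), the 31st lowest value of the 1941, and the IgG/input ratio was between 0.00640 and 0.0150 in the 3 derivatives. Members b and h were called higher, at 1.67 ± 0.62 (adjusted p = 0.0138 in edgeR) and 1.64 ± 0.61 (adjusted p = 0.0133).

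These 2 calls rest on few reads. IgG counts of miR-378b were 4, 8 and 11 reads in FTO1C1, FTO2D4 and FTO3C3, or 5.39, 10.2 and 59.0 RPM, against 2.13, 9.59 and 4.67 RPM in the inputs. The FTO3C3 library is the one that stands out, and without it the log2 fold change of miR-378b was 0.48 (adjusted p = 0.637). Without FTO1C1 it was 1.79 (adjusted p = 0.0569), and without FTO2D4 the member did not pass the filter. For miR-378h the IgG values were 22.9, 11.4 and 16.1 RPM against 3.55, 6.85 and 5.33 RPM in the inputs, with no overlap. That separation is a description only, as its share over all miRNAs was not counted. Without FTO1C1 the log2 fold change of miR-378h was 1.06 (adjusted p = 0.323 in edgeR), and neither member was called with TMM factors. Member a-5p (-0.60, adjusted p = 0.338) and member c (-0.67, adjusted p = 0.286) were not called. Members d, f, g and i did not pass the filter, with IgG counts of 1 to 14 reads.

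**Figure D2:**
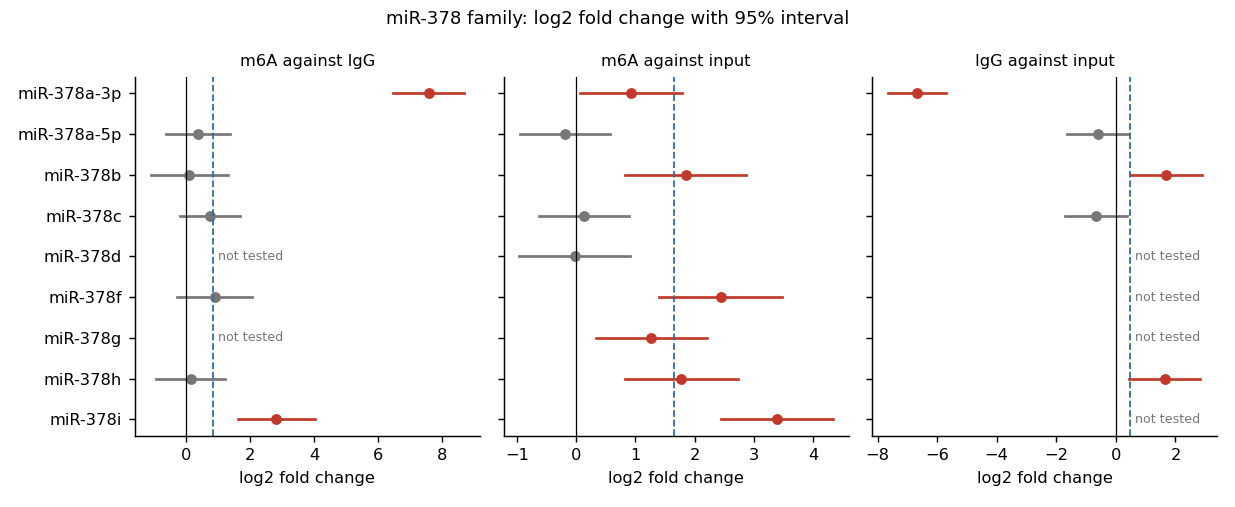
Log2 fold change (point) and its 95% interval (line) of each member in 3 comparisons of the RIP-seq libraries, by edgeR with 3 cell derivatives; red marks an adjusted p under 0.05, the dashed line the median of all miRNAs tested, 0.83, 1.65 and 0.49 from left to right. In m6A against IgG, miR-378a-3p (7.59) and miR-378i (2.82) lie right of the dashed line with their whole interval, and in IgG against input miR-378a-3p lies at -6.68.

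The 3 comparisons share libraries and are given side by side only. For miR-378a-3p, 7.59 above IgG, 0.92 above input and -6.68 for IgG against input show that the distance to IgG lay mostly in the low IgG level. For miR-378i, 2.82 above IgG stood beside 3.39 above input, and its IgG level was close to its input level.

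The position of these values among miRNAs of high or low input level was described with groups that were formed after the values had been seen, and no test was made. The same input libraries set the groups and serve as reference in the comparisons against input. Group medians there are therefore not independent of how the groups were formed. In all 3 inputs, 57 miRNAs had at least 1000 RPM, miR-378a-3p among them. Their median log2 fold change was 2.42 in m6A against IgG, -1.69 in m6A against input and -5.68 in IgG against input, and the 90th percentile was 5.81 and 0.84 in the comparisons with m6A. In m6A against input, 39 of the 57 were called lower and 5 higher, and miR-378a-3p was among the 5. In all 3 inputs, 1345 miRNAs had under 30 RPM, and the other 8 members were among them. The median of those tested was 0.75 in m6A against IgG, with a 90th percentile of 2.45, and 2.18 in m6A against input, with a 90th percentile of 3.61. Member i was above the former and below the latter.

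The share of family reads that fell on miR-378a-3p is independent of the library total. It was 98.5%, 97.8% and 97.8% in the m6A libraries of FTO1C1, FTO2D4 and FTO3C3, which overlaps with the inputs. In the IgG libraries it was 22.4% (17 of 76 family reads, 95% Wilson interval from 14.5 to 32.9), 42.5% (57 of 134, from 34.5 to 51.0) and 30.3% (10 of 33, from 17.4 to 47.3), all far below the other groups. The intervals cover counting error only, as the reads carry no molecular identifiers. Summed over members b to i, the level was 59.3, 77.5 and 113 RPM in IgG and 59.6, 74.0 and 56.0 RPM in the inputs, so that IgG and input overlapped for the minor members while the IgG/input ratio of miR-378a-3p was at most 0.0150 in each derivative.

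**Figure D3:**
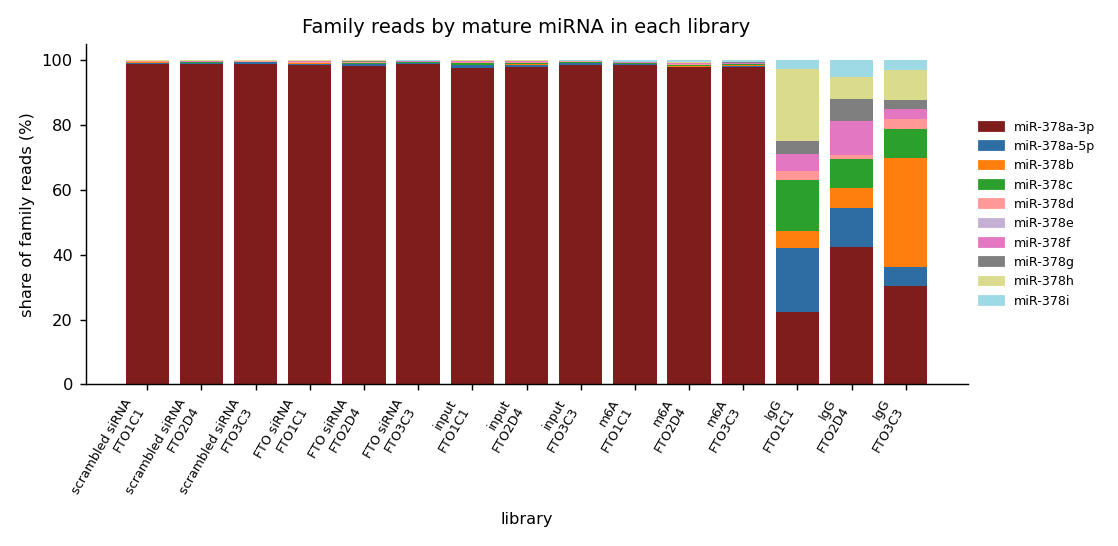
Share of family reads (%) by mature miRNA in each of the 15 libraries, stacked to 100. In scrambled siRNA, FTO siRNA, input and m6A libraries miR-378a-3p takes at least 97.7%, and in the 3 IgG libraries 22.4% to 42.5%.

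The reads of the minor members were also set against those of miR-378a-3p. Per 1000 reads of miR-378a-3p, miR-378i had 0.594 to 0.995 reads in the inputs and 4.30 to 5.03 in the m6A libraries, and these groups did not overlap. It had 0.379 to 0.929 in the scrambled siRNA libraries and 0.832 to 1.29 in the FTO siRNA libraries. Member c had 3.87 to 7.53 in the inputs and 2.06 to 3.68 in the m6A libraries, also without overlap and in the other direction. In the IgG libraries miR-378i had 100 to 123 and miR-378c 211 to 706 reads per 1000. Member f, with 0.332 to 1.13 in the inputs and 1.20 to 2.90 in the m6A libraries, did not overlap either, but had 3 to 8 input reads. Members b, d, g and h overlapped between these groups. The share of all miRNAs that separate on this scale was not counted, so the lack of overlap is a description only.

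Both arms of the miR-378a hairpin were compared within each library. Reads of the 3p arm outnumbered those of the 5p arm 144, 164 and 215 times in the inputs of FTO1C1, FTO2D4 and FTO3C3 and 447, 369 and 319 times in the m6A libraries. The groups did not overlap, and the log2 ratio was higher in m6A by 1.12 ± 0.53 (SD, n = 3), in 3 of 3 derivatives. How many of all hairpins separate in this way was not counted, so the lack of overlap is a description only. The exact two-sided permutation test gave p = 0.25, the smallest p that 3 pairs allow. In the IgG libraries the ratio was 1.13, 3.56 and 5.00, as 15, 16 and 2 reads of the 5p arm met 17, 57 and 10 reads of the 3p arm. The 5p arm itself stood at 22.8, 20.5 and 28.8 RPM in m6A, 24.8, 29.5 and 28 RPM in input and 20.2, 20.3 and 10.7 RPM in IgG, with ranges that overlap between m6A and input.

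The FTO knockdown was used to ask whether a member changes in level when the demethylase is reduced. FTO is a protein-coding gene and was not measured in these miRNA libraries. The study measured its reduction separately in the same derivatives, in transcript and in protein. In FTO siRNA against scrambled siRNA, 4.97% of 2374 miRNAs were called higher and 0.505% lower, and the median log2 fold change was 0.29. All 10 members passed the filter, and edgeR called 0 of them in either direction. With the totals as library sizes, none had an unadjusted p under 0.05 in edgeR, and with TMM factors 1 had, miR-378a-3p (unadjusted p = 0.00312). DESeq2 gave an adjusted p for 777 miRNAs and 1 member, miR-378a-3p, and called it lower, as it did 7.46% of the 777.

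In the scrambled siRNA libraries miR-378a-3p stood at 7821 RPM in FTO1C1, 6427 RPM in FTO2D4 and 9189 RPM in FTO3C3, and in the FTO siRNA libraries at 6162, 5901 and 7212 RPM in the same order. It was lower in 3 of 3 derivatives, but the ranges of the groups overlapped. Each value is a share of the miRNA reads of many cells, so that less of a miRNA per cell, fewer cells with it and more reads on other miRNAs cannot be told apart. The ratio was 0.788, 0.918 and 0.785, a mean of 0.830 ± 0.076. The log2 fold change was -0.27 ± 0.13 (95% interval from -0.56 to 0.01, adjusted p = 0.209 in edgeR), which is 0.56 below the median of all miRNAs. On scales that bring that median near 0 it was -0.56 with TMM factors (adjusted p = 0.0833 in edgeR) and -0.57 in DESeq2 (adjusted p = 0.0216), so that the call depends on scale and tool together.

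The 5p arm stood between 25.8 and 36.1 RPM after FTO siRNA and between 23.9 and 36.7 RPM after scrambled siRNA (log2 fold change 0.07, adjusted p = 0.870 in edgeR). The 3p/5p ratio was between 163 and 280 after FTO siRNA and between 251 and 327 after scrambled siRNA, and its log2 value differed by -0.34 ± 0.44 (exact two-sided permutation p = 0.5). The share of family reads on miR-378a-3p was lower after FTO siRNA in 3 of 3 derivatives, by 0.402 ± 0.173 percentage points (from a mean of 98.9% to 98.5%, exact permutation p = 0.25, the smallest possible).

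Among the minor members, miR-378c and miR-378f did not overlap between the groups. The share of all miRNAs without overlap was not counted, so this is not read as a result about these members. Member c stood at 15.2, 11.8 and 12.6 RPM after FTO siRNA and at 8.52, 9.74 and 11.6 RPM after scrambled siRNA (log2 fold change 0.43, adjusted p = 0.282 in edgeR). Member f stood at 8.91, 9.82 and 9.54 RPM against 7.15, 6.49 and 7.03 RPM (0.44, adjusted p = 0.286). Both were within 0.16 of the median of all miRNAs and were not called. Member e, with 6 to 17 reads in a library, gave 0.45 ± 0.39 (adjusted p = 0.472 in edgeR). The remaining members lay between -0.20 for miR-378b and 0.34 for miR-378h, and their groups overlapped.

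**Figure D4:**
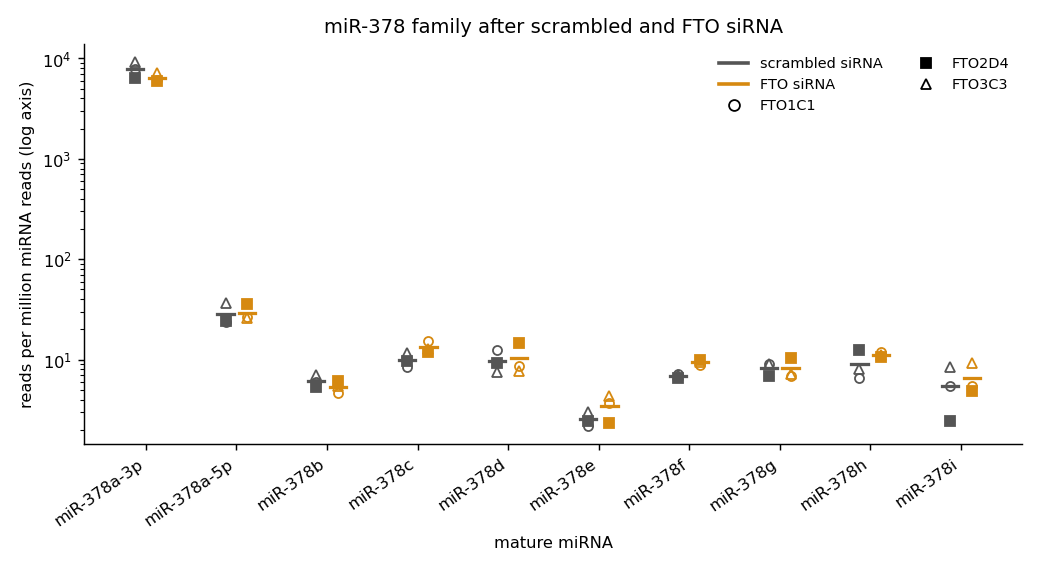
Reads per 1000000 miRNA reads (log axis) of the 10 members after scrambled and FTO siRNA; each point is a library of 1 cell derivative and the bar is the mean of the 3. Points of miR-378a-3p run from 5901 to 7212 RPM after FTO siRNA and from 6427 to 9189 RPM after scrambled siRNA.

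The study's thresholds on level and fold were also applied, as read here. At 15 RPM or more in all 3 scrambled siRNA libraries, the level it asks of a lowered miRNA, 1032 of 2418 miRNAs were counted as expressed (42.7%), miR-378a-3p and miR-378a-5p among them. Raised miRNAs had a mean ratio over 2 and reached 15 RPM in each library with FTO siRNA (35 miRNAs, 1.45%), and lowered ones were expressed with a mean ratio under 0.5 (4 miRNAs, 0.165%). No member met either rule. The study reports fewer expressed miRNAs and more raised and lowered ones, so these readings of its thresholds do not reproduce its counts.

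The miRNAs whose profile over the 9 RIP-seq libraries was most like that of miR-378a-3p were found by the root mean square difference of log2(RPM + 1), each profile centred on its own mean, among 1880 miRNAs. They were miR-103a-3p (0.392 on the log2 scale), miR-374b-5p (0.697), miR-10a-5p (0.776), miR-4502 (0.813) and miR-191-5p (0.827), where the median miRNA differed by 3.41. Of the family, 4 members had the mean of 15 RPM that this comparison asked for, and they differed by 2.97 (miR-378i), 3.12 (miR-378c), 3.16 (miR-378a-5p) and 3.77 (miR-378b). Members d, f, g and h were below it and were not compared. The nearest, miR-103a-3p, had a mean of 1613 RPM in input, 3679 RPM in m6A and 10.5 RPM in IgG.

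The seed relative miR-422a behaved like the minor members in level. It stood between 4.67 and 11.4 RPM in input, between 19.3 and 35.2 RPM in m6A and between 7.63 and 21.5 RPM in IgG. Its log2 fold change was 0.95 in m6A against IgG (adjusted p = 0.124 in edgeR), 1.52 in m6A against input (adjusted p = 0.00418, 0.13 below the median of all miRNAs) and 0.37 after FTO siRNA (adjusted p = 0.301). Of the 7 miRNAs of the RefSeq annotation that share the seed and the GGACU within it, miR-378a-3p and miR-378i were therefore called over IgG. MiR-378b, c, f, h and miR-422a, with 1 to 17 IgG reads in a library, were not. Members d and e had no sequence in that annotation and are not among the 7. Of all 2054 miRNAs tested, 38.6% were called higher, which is no smaller a share than that of these 7.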

How the data were processed

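For 6 knockdown and 9 RIP-seq libraries, the authors deposited raw counts per mature miRNA. The authors trimmed adapters from 50-base reads with cutadapt, kept reads of 16 to 28 bases and matched them to miRBase release 20 (exact matches of 7 bases or more that together cover 17 or more). The libraries were TruSeq small RNA libraries, and no genome build was involved.

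The counts were scaled here to the total of miRNA reads per library (RPM). Differences were tested over all miRNAs with edgeR 4.0.16 (R 4.3.3). Its quasi-likelihood test used the totals as library sizes, the cell derivative as a block and the filterByExpr filter at a count of 10, and calls were made at a Benjamini-Hochberg adjusted p under 0.05. The SE is the log2 fold change divided by the root of F. DESeq2 1.42.0 was an alternative, and Python 3.11.15 with scipy 1.17.1 gave the exact tests and intervals. In the enrichment rule, the cutoff on all 3 m6A libraries and the mean of the 3 ratios are choices made here, and 3 reads stood in for an IgG count of 0. The test was checked on simulated data. Alternatives were TMM factors, DESeq2, other filters, no block, each derivative left out, totals without miR-6080, all 9 RIP-seq libraries in 1 fit, other cutoffs and means in the rules, 0.5 reads added to both arms and a family share without miR-378a-5p.

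Libraries of the same derivative are paired because they come from the same clone. Deviations of paired libraries from their group means correlated at 0.225 to 0.334 in the knockdown and between -0.0782 and 0.0692 in the RIP-seq comparisons. No pair of libraries of a group agreed within sampling noise. All members were named, with miRNAs of the same seed, the 5 of most similar profile, and lists of miRNAs in introns of metabolic genes and of muscle miRNAs. The members and lists were chosen with earlier results of these data known.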

Additional observations from a re-analysis of the deposited data

How the results depend on the processing

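The number of members called was recomputed under each alternative, and the low counts of the minor members are the main limit, since 1 to 17 IgG reads stood behind each of them. In FTO siRNA against scrambled siRNA, DESeq2 called 1 member lower, the only member of its 777 miRNAs with an adjusted p, where edgeR called none under any setting. In m6A against IgG, a minimum count of 50 left 1 member called higher, as only 1 was tested, and 50.6% of all miRNAs were called higher. In m6A against input, TMM factors and DESeq2 each left 1 called higher and 3 lower of 9. They called 26.4% and 22.2% of all miRNAs higher and 28.2% and 26.9% lower. A minimum count of 50 left 2 higher of the 2 then tested, and 66.5% of all miRNAs. In IgG against input, 0 were called higher with TMM factors (of 5 tested), DESeq2 (of 9) or a minimum count of 50 (of 1). Without miR-6080 in the totals, 1 of 4 was called higher. Of all miRNAs, 28.8%, 20.6%, 40.1% and 62.3% were called higher in the same order. There, 3 of 5 were called lower with TMM factors, and 2 of 9 with DESeq2, with no filter and with all 9 libraries in 1 fit. Of all miRNAs, 30.2%, 25.2%, 19.8% and 20% were called lower in the same order. Leaving out 1 derivative gave 0 to 1 called higher and 1 to 2 lower in that comparison, of 4 to 6 members tested. Of all miRNAs, 25.8% to 36.5% were then called higher and 16.8% to 22.8% lower. By the enrichment rule, 2 members passed at 15 RPM, among 967 of 2189 miRNAs.

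Directions of small, uncalled differences turned with the scale. Against scrambled siRNA, miR-378a-5p went to -0.22 with TMM factors and -0.23 with DESeq2, and miR-378d to -0.26 and -0.24. In m6A against IgG, TMM factors and DESeq2 gave -0.42 and -0.40 for miR-378a-5p, -0.65 and -0.61 for miR-378b, -0.05 and -0.07 for miR-378c and -0.64 and -0.67 for miR-378h. Totals without miR-6080 gave -0.37 for miR-378a-5p and -0.58 for miR-378h. In m6A against input, TMM factors and DESeq2 gave -0.62 and -0.65 for miR-378a-3p, -1.43 and -1.46 for miR-378c and -0.29 and -0.32 for miR-378g, where miR-378a-3p and miR-378g had been called higher. Totals without miR-6080 gave 0.27 for miR-378a-5p and 0.43 for miR-378d there, and in IgG against input 0.57 for miR-378a-5p and 0.48 for miR-378c.

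With 1 derivative left out, log2 fold changes crossed 0 for miR-378a-5p (-0.18 to 0.35), miR-378d (-0.29 to 0.39) and miR-378g (-0.36 to 0.15) after FTO siRNA, for miR-378b (-0.30 to 0.90) and miR-378h (-0.26 to 0.59) in m6A against IgG, and for miR-378c (-0.05 to 0.32) and miR-378d (-0.56 to 0.32) in m6A against input. Without the replicate block, the counts of members called stayed at 2 higher in m6A against IgG, 6 higher in m6A against input and 2 higher and 1 lower in IgG against input, and 0 after FTO siRNA, and the log2 fold change of miR-378a-3p over IgG was 7.51. Apart from the cases where fewer members or libraries were tested, the cause of these shifts was not tested. The calls of miR-378a-3p over IgG held under every alternative, with log2 fold changes from 6.82 to 8.17, and those of miR-378i under every alternative that tested it, from 2.02 to 3.65.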

Other observations

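A list of miRNAs hosted in introns of metabolic genes was set beside the family: both arms of miR-33a and miR-33b from the sterol regulator genes SREBF2 and SREBF1, and miR-103a-3p, miR-103a-2-5p and miR-107 from pantothenate kinase genes. Of these 7, edgeR called none in FTO siRNA against scrambled siRNA, where 2 had an unadjusted p under 0.05. Of all miRNAs tested there, 4.97% were called higher and 0.505% lower. In m6A against IgG, 2 of the 5 tested were called higher, miR-103a-3p at a log2 fold change of 8.47 (adjusted p = 3.66e-06 in edgeR) and miR-107 at 6.74 (adjusted p = 0.000151). The share over all miRNAs was 38.6%. In m6A against input, 1 of 6 was called higher and 4 lower, beside 66.8% and 10.5% of all miRNAs. The one called higher was miR-103a-3p (1.19, adjusted p = 0.00894), and miR-33b-5p was the lowest (-2.66, adjusted p = 2.09e-06). MiR-103a-3p and miR-107 thus both stood high over IgG, but miR-107 was at -0.99 against input (adjusted p = 0.0282).

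Of 12 muscle miRNAs, 9 were tested in the knockdown, where 4.97% of all miRNAs were called higher. Among the 9, only miR-499a-5p was called higher (log2 fold change 0.74, adjusted p = 0.0362 in edgeR). It stood between 180 and 234 RPM after FTO siRNA and between 118 and 126 RPM after scrambled siRNA. In m6A against IgG, 3 of 9 were called higher, beside 38.6% of all miRNAs. In m6A against input 5 of 9 were called higher and 1 lower, beside 66.8% and 10.5% of all miRNAs. The 1 called lower was miR-499a-5p (-1.21, adjusted p = 0.00888 in edgeR). In IgG against input, 5 of 6 tested miRNAs of the metabolic list were called lower, and 2 of 8 muscle miRNAs were called higher and 2 lower. Of all miRNAs, 36.8% were called higher and 21.8% lower there.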
